A study of Homo sapiens with 16 samples.

Results

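CTCF binding was compared between DKO and HCT116 cells by chromatin immunoprecipitation followed by sequencing. HCT116 is a colorectal carcinoma cell line, and DKO was made from it by disrupting DNMT1 and DNMT3B, genes of DNA methyltransferases. Both lines were grown in the same serum-containing McCoy's 5A medium with no further treatment named. The regions described here are all 171693 rows of the CTCF table, out of 1255311 rows in the 7 tables of the series. Each line gave 1 CTCF library, so the lines could not be compared beyond these libraries and no test was made. DKO was derived by gene targeting and passed through selection of targeted cells, so a difference between the lines that arose in that selection cannot be told apart from one that follows the loss of the enzymes.

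CTCF is a zinc finger protein that binds a long, directional DNA motif at insulators, promoters and the borders of chromatin domains. Cohesin, the ring complex that contains RAD21 and SMC1, extrudes chromatin loops and tends to halt at bound CTCF. A share of CTCF motifs contains a CpG, and methylation of that CpG can block binding, so cells with little DNA methylation are a common setting in which to look for gained CTCF sites. DNMT1 copies methylation after replication, and DNMT3B sets it on unmethylated DNA.

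The measure used throughout is the log2 of the DKO over the HCT116 normalized read density. A value above 0 means a higher density in DKO. Reads are those of a 1 kb counting window at each region, recovered from the deposited values. The median region had 55 DKO reads and 36 HCT116 reads. From the 5th to the 95th percentile, reads ran from 18 to 337 in DKO and from 11 to 351 in HCT116. At this depth counting error alone corresponded to a log2 SD of 0.32, and the regions had an SD of 0.96. Intervals given below are 95% intervals for counting error or for the spread of regions within these libraries only, since PCR copies count more than once and a region is no replicate.

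CTCF density was higher in DKO by 2-fold or more at 34479 regions, which is 20.1% of those measured. It was higher in HCT116 by as much at 10867, which is 6.33%. The median region had a log2 ratio of 0.26. Regions higher in DKO thus made up 76.0% of those past 2-fold. When the ratios were recentred on the median of all regions, a shift of -0.26, that share was 56.8%. It was 83.5% when the lines were scaled by a constant in place of the authors' density-dependent line. All of these splits kept a majority higher in DKO. Recentring lowers every deposited CTCF median given below by 0.26 and leaves differences between CTCF medians as they are. RAD21 and SMC1 were recentred on their own regions. Recentring also moves the shares past 2-fold and turns the direction of some. Shares below are as deposited unless stated, and a direction read from them can depend on the centring.

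The authors' own peak calls divide the table into 3 groups. Regions called in both lines numbered 74774 (43.6%), those called in DKO only 70937 (41.3%) and those called in HCT116 only 25982 (15.1%). The calls were made on the same reads as the densities, so the direction of the last groups is built into them, and their ratios are a description.

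Regions called in both lines had nearly equal density in the deposited scaling, with a median log2 ratio of 0.01. They held a median of 96 DKO reads and 88 HCT116 reads, and their median length was 885 bp. Of them 4818 (6.44%) passed 2-fold toward DKO and 3226 (4.31%) toward HCT116 as deposited. With recentring the majority turned, to 2919 toward DKO and 6891 toward HCT116. By their medians, shared binding sites were thus the tallest and longest of the 3 groups.

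Regions called in DKO only were weak in most cases. Their median was 49 reads in DKO against 22 in HCT116, the median length was 261 bp and the median log2 ratio was 0.85 (0.85 to 0.86). Only 41.8% of them reached a 2-fold difference, 27.4% lay within 0.5 of 0, and 4435 (6.25%) had a higher normalized density in HCT116. In 21.6% of them the HCT116 reads were at least as many as the median of the regions called in HCT116 only. A DKO-only call was therefore not the same as absence of CTCF reads in HCT116: 27 such regions had 0 HCT116 reads.

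Regions called in HCT116 only were weaker still. They had a median of 25 DKO reads and 33 HCT116 reads, a median length of 214 bp and a median log2 ratio of -0.62 (-0.63 to -0.61). A 2-fold difference was reached by 29.3%, and 3823 (14.7%) had a higher normalized density in DKO. At least 4-fold higher in DKO were 7528 regions called in DKO only, 10.6% of them. At least 4-fold higher in HCT116 were 1246 regions called in HCT116 only, 4.80% of them. Among regions called in both lines these counts were 777 and 132.

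**Figure D1:**
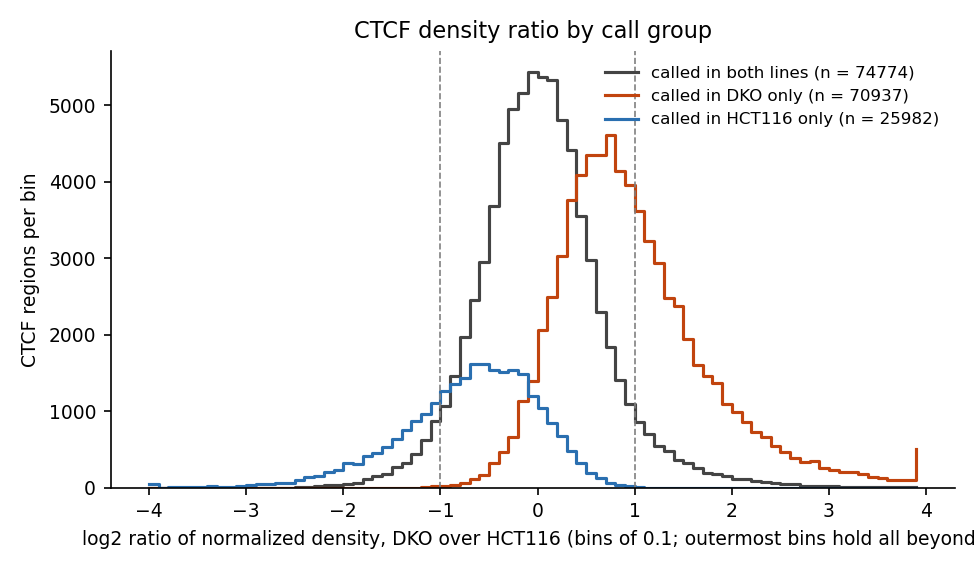
Number of CTCF regions (y axis) per bin of the log2 density ratio, DKO over HCT116 (x axis), for the 3 call groups; dashed lines mark a 2-fold difference. Regions called in both lines centre on 0.01, those called in DKO only on 0.85 with a long right side, and those called in HCT116 only on -0.62, and all 3 overlap around 0.

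Length separated the DKO-only regions into a weak majority and a small set of broad, strong sites. The 32854 DKO-only regions shorter than 250 bp had a median log2 ratio of 0.66 and 29.3% of them passed 2-fold. With 250 to under 500 bp the median was 0.88 (42.5% past 2-fold), and with 500 to under 1000 bp it was 1.43 (71.8%). The 2040 regions of 1000 to under 2000 bp had a median of 134.5 DKO reads and 22 HCT116 reads, with a median log2 ratio of 2.48 (2.43 to 2.54). All 357 regions of 2000 bp or more passed 2-fold, with a median of 254 DKO reads and 23 HCT116 reads and a median log2 ratio of 3.36 (3.24 to 3.51). Median HCT116 reads lay between 22 and 24 in all 5 length classes, and the DKO reads were the ones that differed between them. Length is a property of the called peak and follows its height, so length and read number are not independent of each other here.

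HCT116-only regions followed the same course in the other direction but rarely became broad. Their median log2 ratio was -0.53 under 250 bp, -0.73 from 250 to under 500 bp and -1.14 from 500 to under 1000 bp. Only 29 had a length of 1000 to under 2000 bp, with a median of 95 reads in HCT116 and 31 in DKO, and 1 was longer. Against this, 2397 DKO-only regions were 1000 bp or longer. The longest DKO-only region measured 5419 bp and the longest HCT116-only region 2157 bp.

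Among regions called in both lines, the shares past 2-fold differed with length more than the median did. From 250 to under 500 bp, 2.53% passed 2-fold toward DKO and 5.15% toward HCT116. From 1000 to under 2000 bp the shares were 8.48% and 3.17%, and at 2000 bp or more 7.98% (7.52% to 8.46%) and 0.47% (0.36% to 0.59%). With recentring these 3 classes had 0.82% and 10.5%, 5.61% and 8.16%, and 5.94% and 1.19%, so the middle class turned. Under constant scaling the first class turned, to 4.31% and 3.38%. In each of these scalings regions of 2000 bp or more had the larger share toward DKO. Medians stayed close to 0 in every class, from -0.11 to 0.14 as deposited. The median of the longest class, 0.14, turned to -0.02 under constant scaling and to -0.12 with recentring, so no direction is given for it.

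**Figure D2:**
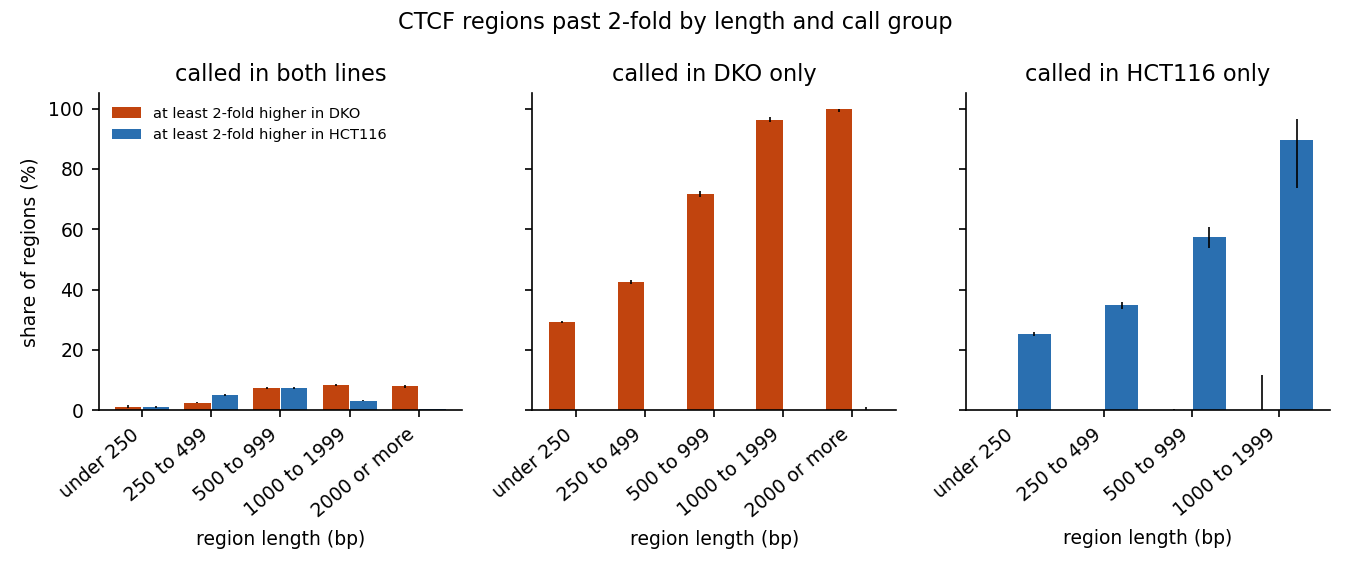
Share of CTCF regions at least 2-fold higher in DKO or in HCT116 (y axis, %) by region length in bp (x axis), in 1 panel per call group, with Wilson 95% intervals as bars; the single HCT116-only region of 2000 bp or more is not drawn. The share rises with length in both single-line groups, from 29.3% to 100% for DKO-only regions, and stays under 10% in regions called in both lines.

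The 3 longest regions of the table were all called in both lines and differed by less than 2-fold. At chr17:73608795-73623859, which spans 15064 bp, there were 949 reads in DKO and 667 in HCT116, a log2 ratio of 0.73 (0.58 to 0.87). The region chr17:73743181-73756868 had 906 and 727 reads (0.54), and chr19:1216592-1229325 had 820 and 536 (0.81). All 3 counts were higher in DKO. These reads cover 1 kb of regions of 12733 bp or more, and in the first of them the cohesin subunits differed from each other, with 201 and 338 RAD21 reads (log2 ratio -0.82) and 294 and 122 SMC1 reads (0.91).

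The tallest sites with equal density show what strong shared binding looked like. The region chr10:46981679-46985218 had 784 reads in DKO and 895 in HCT116 (log2 ratio 0.04, -0.10 to 0.18). The regions chr12:82751886-82754148 with 775 and 870 reads (0.06) and chr19:4265487-4269540 with 747 and 820 (0.08) were alike. Raw reads were higher in HCT116 at all 3, and the authors' scaling brought the ratios to about 0. Under constant scaling they were -0.22, -0.19 and -0.16.

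Some strong sites called in both lines still differed widely. At chr17:58497717-58500219 CTCF had 1010 reads in DKO and 47 in HCT116, a log2 ratio of 4.45 (4.06 to 4.93). RAD21 there had 494 and 50 reads (3.12) and SMC1 322 and 33 (2.92), so both cohesin subunits were higher in DKO as well. At chr14:24044674-24046728 CTCF had 608 and 29 reads (4.33) and at chr2:173538172-173540540 it had 454 and 23 (4.20). HCT116 had a called peak at each of these places, with a lower count.

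The highest ratios of all came from regions called in DKO only, and cohesin was higher in DKO at the same places. At chr9:976133-978059, with 263 CTCF reads in DKO and 2 in HCT116, RAD21 had 55 and 8 reads (log2 ratio 2.11) and SMC1 71 and 18 (1.62). At chr3:96531590-96534331, with 495 and 5 CTCF reads, the nearest CTCF region was 32364 bp away. Among regions 5 to 20 kb from their neighbour the highest was chrX:19139812-19140628, with 113 reads in DKO and 1 in HCT116 (5.54, 4.02 to 11.84), where RAD21 had 101 and 10 (2.76). These sites were thus found both in clusters and apart from other CTCF regions.

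Regions called in both lines also reached large ratios toward HCT116, from smaller read numbers. At chr13:50243356-50244336 CTCF had 35 reads in DKO and 370 in HCT116, a log2 ratio of -3.39 (-3.97 to -2.93), with RAD21 at -2.60 and SMC1 at -2.37. The region chrX:41339853-41341597 had 26 and 206 reads (-3.02), and chr18:7872417-7872886 had 23 and 178 (-3.001). RAD21 and SMC1 were lower in DKO at all 3, with log2 ratios from -2.60 to -1.20.

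Among regions called in HCT116 only, the lowest ratios came from places with no DKO reads at all. At chr20:31377206-31379363, the only HCT116-only region of 2000 bp or more, DKO had 0 reads against 431, at least 171-fold lower at a floor of 3 reads in that library. This floor is used for every region with 0 reads, and the exact 95% interval allows somewhat smaller differences, here a log2 ratio of up to -7.11. Its neighbours chr20:31376748-31376955 and chr20:31376223-31376422 also had 0 DKO reads, against 43 and 39. At chr20:31377206-31379363 RAD21 had 0 DKO reads against 174 in HCT116, and SMC1 had 0 against 151. The next lowest CTCF ratios were at chrY:2803937-2804314 with 0 against 79 reads, at least 33.8-fold lower, and chrX:122904314-122904793 with 0 against 66, at least 28.5-fold lower. In all, 39 regions had 0 DKO reads, of which 26 lay on chromosome Y, 7 on X and 3 at the chromosome 20 site. DNMT3B, disrupted in DKO, is a gene of chromosome 20, but regions were not assigned to genes here. The input libraries were not used, so missing DNA and missing binding cannot be told apart at these sites.

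Regions with 0 HCT116 reads were spread more widely. There were 27, on 14 chromosomes, with 16 to 72 reads in DKO. The region chr2:114299485-114299890 had 72 reads in DKO, at least 18.6-fold higher, and chr20:21377548-21377788 had 63, at least 16.2-fold higher. Both lay within 1 kb of another CTCF region. The region chr1:147551239-147551516 stood apart, with its nearest CTCF region 167120 bp away, and had 34 DKO reads, at least 8.51-fold higher.

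A few regions went against their own call. The HCT116-only region chr20:3229785-3229944 had 128 reads in DKO and 34 in HCT116 (log2 ratio 1.78, 1.26 to 2.40). The DKO-only region chr2:48834903-48835088 had 24 and 73 reads (-1.72, -2.49 to -1.08). Each lay 5 bp from another CTCF region, and their counting windows therefore reach into that neighbour. The next such HCT116-only regions, chr19:3491269-3491432 with 92 and 34 reads and chr16:1147767-1147997 with 85 and 32, lay within 1 kb of a neighbour too. So did the DKO-only regions chr5:90597878-90598042 with 31 and 87 reads and chr11:64054479-64054684 with 61 and 156. Such regions were few: 13 HCT116-only regions passed 2-fold in the DKO direction and 35 DKO-only regions in the HCT116 direction.

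Density classes were formed as quintiles of the mean log2 density of both lines. The median log2 ratio was 0.50 in the lowest quintile and 0.44, 0.39 and 0.26 in the following ones, and it was -0.05 in the highest. The share at least 2-fold higher in DKO went from 32.5% in the lowest quintile to 5.31% in the highest. The share higher in HCT116 went from 16.02% to 2.61%. With recentring the direction of the highest quintile turned, to 3.67% and 7.10%. Both the DKO and the HCT116 share were thus highest in the weakest sites. A weak region had to be called in at least 1 line to be listed, so this is in part built into the calls. The lowest quintile held 21592 DKO-only, 11431 HCT116-only and 1344 shared regions, and of the shared ones 1.26% and 3.27% passed 2-fold. The spread was wider than counting error in each of these classes. The SD of the log2 ratio was 1.29 in the lowest quintile, against a counting SD of 0.45. In the highest quintile it was 0.63 against 0.14. For shared regions alone these values were 0.49 against 0.41 in the lowest quintile and 0.60 against 0.14 in the highest. Within regions called in both lines, the medians from the lowest to the highest quintile were -0.06, -0.01, 0.09, 0.11 and -0.06 as deposited. Under constant scaling, which leaves out the authors' density-dependent term, they were 0.13, 0.15, 0.22, 0.18 and -0.16. The difference between the lowest and the highest quintile of these shared regions thus depends on that term. There the share past 2-fold peaked in the fourth quintile, at 10.1% higher in DKO and 6.51% higher in HCT116 as deposited, and at 6.15% and 12.3% with recentring, which turns the direction.

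Crowding of CTCF regions went with the ratio. Spacing was taken as the distance in bp between the edges of a region and its nearest neighbour in the table. That neighbour can be of any call group, so the spacing classes depend in part on calls made on the compared reads. The 111488 regions with a neighbour within 1 kb had a median log2 ratio of 0.34, with 20.5% at least 2-fold higher in DKO and 2.62% in HCT116. For the 11707 regions whose nearest neighbour was 20 to 100 kb away the median was -0.13 (-0.15 to -0.11), with 18.6% and 16.7%, and with recentring 14.3% and 24.8%, so no direction is given for this class. At 100 kb or more the median of the 805 regions was -0.02 (-0.11 to 0.12). Across all 5 spacing classes the share higher in DKO lay between 17.5% and 25.0%. The share higher in HCT116 went from 2.62% to 17.3%. With recentring the classes of 1 to 5 kb, 5 to 20 kb and 100 kb or more turned as well. Their shares were then 14.4% and 15.9%, 12.7% and 22.1%, and 20.6% and 22.9%. Regions within 1 kb of each other share reads through their counting windows.

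Regions called in both lines showed the same order up to 100 kb. Their median went from 0.08 (0.07 to 0.08) with a neighbour within 1 kb, through -0.06 at 1 to 5 kb and -0.15 at 5 to 20 kb, to -0.24 (-0.26 to -0.22) at 20 to 100 kb. It did not go lower in the 380 most isolated regions, with -0.18 (-0.24 to -0.11) at 100 kb or more. The share at least 2-fold higher in HCT116 was 2.45% in the first of these classes, 9.81% at 20 to 100 kb and 10.8% at 100 kb or more. Taken within each density quintile of these shared regions, the median with a neighbour within 1 kb was above that at 20 to 100 kb in all 5. In the highest quintile the medians were -0.02 and -0.30, and in the fourth 0.22 and -0.26. Shared CTCF sites that stood alone were thus lower in DKO, relative to the others, than those in clusters, in weak and strong classes of density. The nearest neighbour of a shared region was called in DKO only in 40.7% of cases and in HCT116 only in 16.4%. Crowding was thus set in part by the DKO reads that enter the ratio, and that part was not tested.

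In the single-line groups isolation went with a larger ratio in either direction and with fewer reads in both lines. DKO-only regions had a median log2 ratio of 0.80 within 1 kb of a neighbour and 1.34 (1.157 to 1.496) at 100 kb or more, where 64.4% passed 2-fold. HCT116-only regions had -0.33 within 1 kb and -1.20 (-1.33 to -1.06) at 100 kb or more, where 59.8% passed 2-fold. Between these classes the median reads of DKO-only regions went from 52 to 33 in DKO and from 25 to 11 in HCT116. For HCT116-only regions they went from 34 to 13 in DKO and from 37 to 24 in HCT116. The isolated regions were thus weaker in the line of their call as well, and windows within 1 kb of a neighbour share its reads. The nearest neighbour was called in both lines for 47.0% of DKO-only and 53.8% of HCT116-only regions, against 46.3% of all regions. The nearest neighbour of a DKO-only region was another DKO-only region in 45.8% of cases and an HCT116-only region in 7.11%. For HCT116-only regions these shares were 23.1% for DKO-only and 23.2% for HCT116-only neighbours, and for all regions 40.2% and 13.6%.

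Consecutive regions along a chromosome tended to differ in the same direction. Spearman's rho between the log2 ratios of a region and the next was 0.75 for summits less than 1 kb apart, where windows share reads. It was 0.42 at 1 to 2 kb, 0.32 at 2 to 5 kb and 0.24 at 10 to 20 kb, where windows do not overlap. At 100 kb or more it was 0.42 over 4812 pairs. After a region at least 2-fold higher in DKO, the next region was higher in DKO in 30.4% of pairs 10 to 20 kb apart, against 18.3% of all next regions at that distance. After a region at least 2-fold higher in HCT116, the next was higher in HCT116 in 20.98%, against 9.13%. When both regions were called in both lines, rho was 0.20 at 10 to 20 kb and 0.24 at 100 kb or more. All of these rho values come from regions of 1 pair of libraries, and consecutive regions are not replicates.

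**Figure D3:**
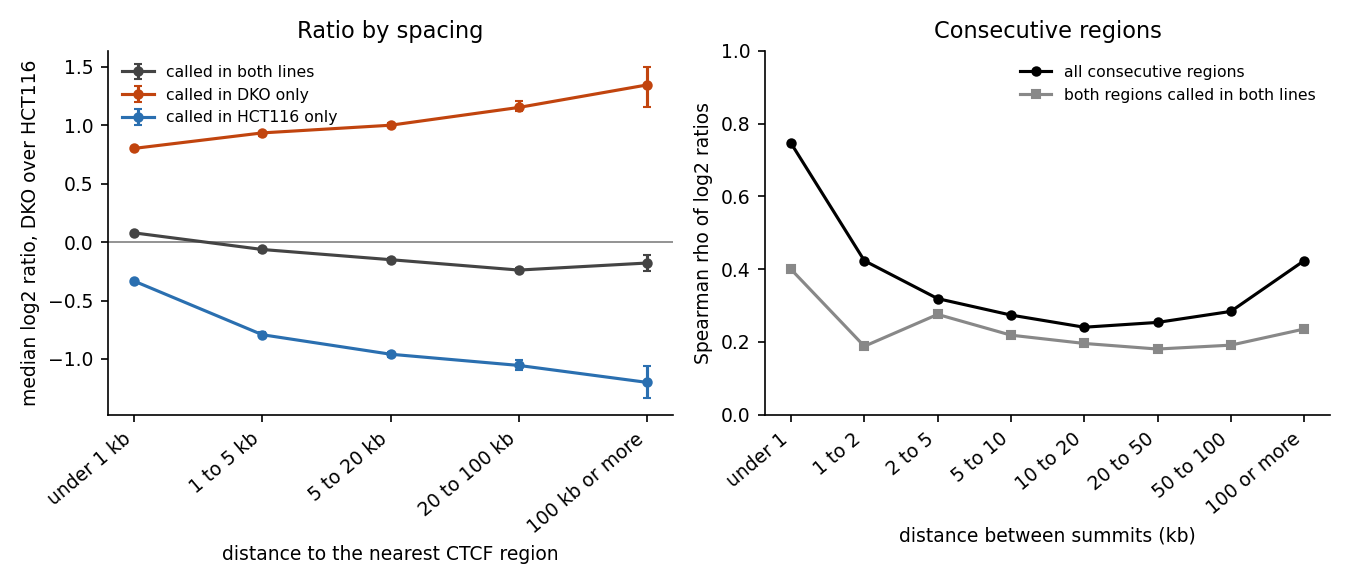
Left, median log2 density ratio (y axis) by distance to the nearest CTCF region (x axis) for the 3 call groups, with 95% order-statistic intervals; right, Spearman's rho between the log2 ratios of consecutive regions (y axis) by the distance between their summits in kb (x axis), for all pairs and for pairs called in both lines. The median of regions called in both lines goes from 0.08 to -0.24 between the first and the fourth spacing class, and rho stays at or above 0.18 at every distance.

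Long runs of consecutive regions past 2-fold were far more frequent in the DKO direction, with 1132 runs of 5 or more regions against 96 in the HCT116 direction. The larger number of DKO-higher regions contributes to that difference. That number depends on the centring, with 34479 against 10867 regions as deposited and 23831 against 18123 with recentring. Runs were counted as deposited only. Regions within 1 kb share reads, which can lengthen runs. The longest run, chr5:2298101-3024640, held 52 regions, 34 of them at least 2 kb apart. Its regions had a median of 50.5 DKO reads and 9 HCT116 reads and a median log2 ratio of 2.22, and 51 of the 52 were called in DKO only. RAD21 was measured at 27 of them, with a median of 1.44, and SMC1 at 14, with 0.96.

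The second run, chr19:31285988-31976743, held 48 regions with medians of 60.5 and 11 reads and a log2 ratio of 2.20. The third, chr18:75445261-76392766, held 36 regions with 57 and 9 reads and a log2 ratio of 2.19. The 3 runs span 691 to 948 kb, and none of their regions was called in HCT116 only. Of the 48 regions of the second run 2 were called in both lines, and of the 36 of the third run 3 were.

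The 3 longest runs in the HCT116 direction all lay on chromosome X. The first, chrX:27609959-30079314, held 28 regions with a median of 8 DKO reads and 57 HCT116 reads and a log2 ratio of -2.82. The run chrX:95019942-96999379 held 19 regions (-2.42), and chrX:80132414-82263942 held 18 (-2.45). RAD21 and SMC1 at their regions were lower in DKO too, with medians from -2.53 to -1.15. Each run had 1 or 2 regions without DKO reads. At this depth, a change in the amount of DNA and a change in binding cannot be told apart from these tables.

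Opposite differences between close neighbours were also found. Not counting chromosome 8, 844 of 60592 consecutive pairs 2 to 20 kb apart (1.39%) held 1 region past 2-fold toward DKO and 1 past 2-fold toward HCT116. They were rarer than the overall shares: at 10 to 20 kb, 5.00% of regions after one higher in DKO were higher in HCT116, against 9.13% of all next regions. At chr11:7104926-7105114 CTCF had 2 reads in DKO and 19 in HCT116 (log2 ratio -3.12), and 5.77 kb further, at chr11:7110044-7111529, it had 364 and 13 (4.61). At chr12:40019361-40020456 it had 294 and 10 reads (4.62), and 6.79 kb further, at chr12:40026611-40026791, 4 and 22 (-2.54). In each of the 5 most divergent pairs the HCT116-higher member was a weak region with 19 to 29 reads in HCT116, and the DKO-higher member had 122 to 364 reads in DKO.

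In the other pairs the order was the same. At chr16:49315841-49316757 CTCF had 262 and 2 reads (6.24), and at chr16:49321501-49321710 it had 13 and 23 (-1.04). At chr2:37872907-37873611 CTCF had 122 and 13 reads (2.97), and at chr2:37884827-37885139 it had 2 and 29 (-3.67). At chr6:11038499-11038719 it had 11 and 28 reads (-1.54), and at chr6:11043740-11044589 243 and 4 (5.43). Pairs were picked for opposite differences 2 to 20 kb apart, so the closeness and the opposite direction follow from that choice. In these pairs a site many times higher in DKO stood within 12 kb of a site with more reads in HCT116. The counting interval of the weak members is wide, for example -7.32 to -2.23 for the chromosome 2 region with 2 DKO reads. Those of the chromosome 16 region with 13 and 23 reads (-2.19 to -0.05) and of the chromosome 6 region (-2.77 to -0.56) reach below a 2-fold difference. Under constant scaling this chromosome 16 region had a log2 ratio of -0.80 and did not pass 2-fold.

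Position along the autosomes went with the ratio as well. Distance was measured from the nearer end of the span of CTCF regions on each chromosome. The 27103 regions within 5 Mb of an end had a median log2 ratio of 0.69 (0.67 to 0.70), and 35.8% were at least 2-fold higher in DKO against 2.72% in HCT116. From 5 to 20 Mb the median was 0.29, and for the 93916 regions over 20 Mb from both ends it was 0.15 (0.14 to 0.15), with 15.96% and 7.42%. With recentring the shares of this last class turned, to 10.9% and 12.4%, while those near the ends stayed higher toward DKO at 25.4% and 4.56%. Regions called in DKO only had medians of 1.08, 0.84 and 0.77 in these classes.

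Among regions called in both lines the medians were 0.26 (0.24 to 0.27), 0.06 and -0.06, and the shares at least 2-fold higher in DKO were 13.2%, 6.88% and 4.99% as deposited and 8.26%, 4.14% and 2.98% with recentring. With recentring, the first of these medians was -0.0036, so that only the order of the classes and not the sign holds under each scaling. In bins of 1 Mb, which leave out the side of the acrocentric chromosomes that lacks short-arm regions, the median of these shared regions was 0.29 in the outermost bin, 0.38 in the second and 0.27 in the third, and from 5 to 6 Mb it was 0.11. The difference was present within spacing classes: with a neighbour within 1 kb the medians were 0.31 near the ends and 0.01 over 20 Mb away, and at 20 to 100 kb they were 0.01 and -0.25. The higher ratio near chromosome ends was thus found in crowded and in isolated regions.

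Of the cohesin subunits at these shared regions, RAD21 had the opposite order to CTCF and SMC1 the same order. Both subunits were compared with the regions nearer the first end of the acrocentric chromosomes 13, 14, 15, 21 and 22 left out. In this set CTCF had medians of 0.27 at the 8755 shared regions near the ends and -0.05 over 20 Mb away. RAD21 had a median of -0.02 (-0.04 to 0.01) near the ends and 0.08 in the interior, the opposite order. SMC1 had 0.13 and 0.02, the same order as CTCF. At DKO-only regions RAD21 had 0.47 near the ends and 0.58 in the interior, and at HCT116-only regions -0.56 and -0.54. Over all call groups together RAD21 had 0.16 (0.15 to 0.18) and 0.13 (0.12 to 0.13), the order of CTCF, so its order depends on the set of regions. At shared regions the end minus interior difference was 0.32 for CTCF, -0.10 for RAD21 and 0.11 for SMC1. Under constant scaling it was 0.31, -0.11 and 0.11. Each target was normalized separately, so only the signs of these differences can be set beside each other. Amounts of DNA in the libraries were not measured here, and their part in the CTCF difference was not tested.

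**Figure D4:**
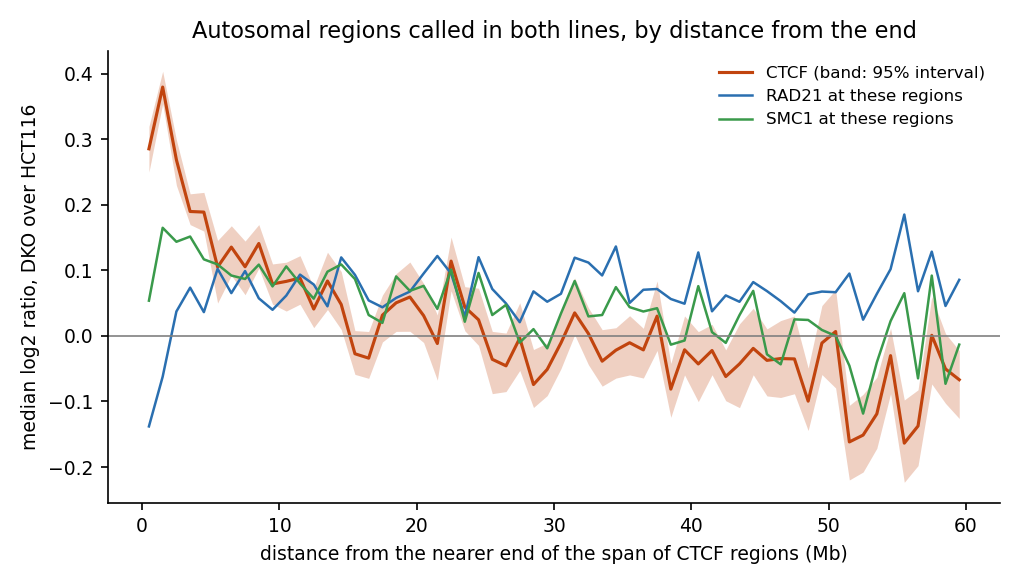
Median log2 density ratio, DKO over HCT116 (y axis), at autosomal CTCF regions called in both lines, in bins of 1 Mb from the nearer end of the span of CTCF regions (x axis), for CTCF with its 95% interval and for RAD21 and SMC1 at those regions. CTCF falls from 0.38 in the second bin to 0.11 at 5 to 6 Mb, while RAD21 starts at -0.14.

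The difference was not the same at every chromosome end. Of 37 ends compared with the interior of their own chromosome, 30 had a higher median and 7 a lower one, using shared regions and leaving out the first end of the acrocentric chromosomes. At 25 ends the interval lay above that of the interior, and at 0 it lay below. The largest difference, 0.67, was at the first end of chromosome 4, with a median of 0.36 (0.23 to 0.45) against -0.31 in the interior. The lowest, -0.18, was at the last end of chromosome 19, with 0.04 against 0.21. For RAD21, 13 of the 37 ends were above the interior, and for SMC1 29.

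Chromosomes rich in CTCF regions tended to have the higher ratios. Regions of every call group were counted, so the density of regions depends in part on calls made on the compared reads. Density of regions ran from 37.8 per Mb on chromosome 13 to 147.8 per Mb on chromosome 19. Across the 22 autosomes its Spearman correlation with the median log2 ratio was 0.75 for all regions and 0.89 for regions called in both lines. Chromosome 21 stood apart, with the highest median of all regions, 0.60, at 55.1 regions per Mb. Shared regions had medians of -0.21 on chromosome 4 and -0.17 on chromosome 13, and of 0.23 on chromosome 20 and 0.22 on chromosome 22. A different amount of DNA of a chromosome in the lines and a difference in binding cannot be told apart in these medians. Across autosomes the CTCF median of shared regions had a rho of 0.86 with that of SMC1 and of -0.01 with that of RAD21. These are descriptions over chromosomes of the same libraries, which share depth and base composition along a chromosome.

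**Figure D5:**
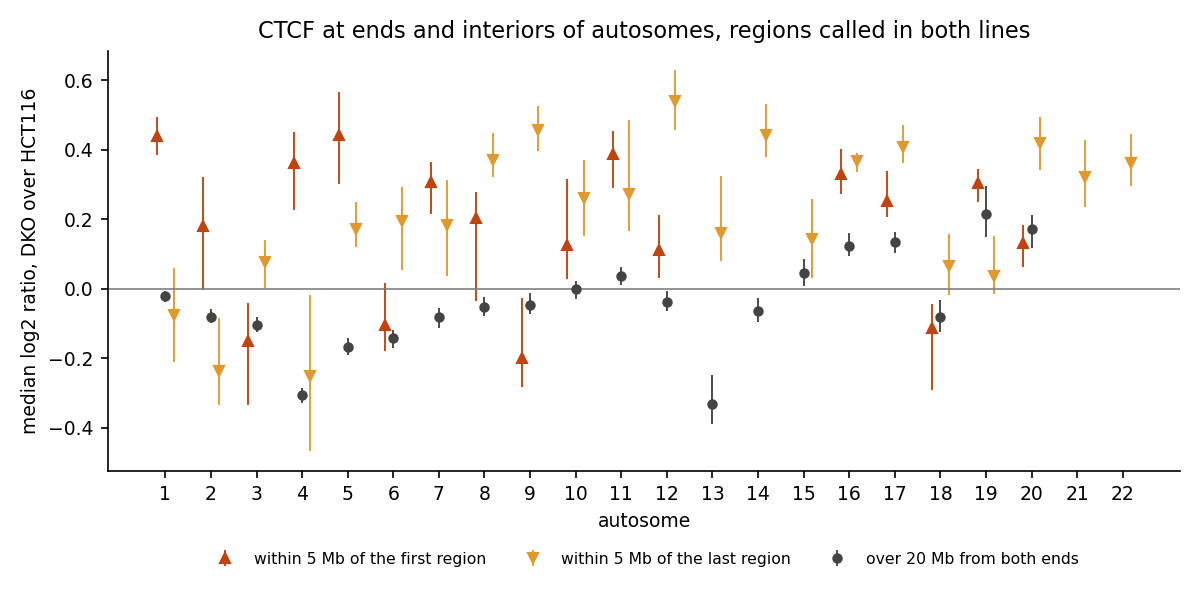
Median log2 density ratio of CTCF regions called in both lines (y axis) within 5 Mb of the first or last region of each autosome (triangles) and over 20 Mb from both ends (circles), with 95% intervals; chromosomes 21 and 22 have no interior. Ends lie above the interior at 30 of 37 ends, most at the first end of chromosome 4 and least at the last end of chromosome 19.

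Cohesin was found at most CTCF regions. Of all CTCF regions 64.3% shared at least 1 bp with a RAD21 or an SMC1 region, and the share was 87.3% for those called in both lines, 48.7% for DKO only and 40.6% for HCT116 only. With midpoints within 500 bp as the match, the shares of the 3 groups were 86.1%, 54.3% and 45.3%. The share with 1 bp of overlap rose with length from 36.3% under 250 bp to 99.8% at 2000 bp or more. A longer region has more bases to share, and the part of length itself in this rise and in the group shares was not tested. Of the DKO-only regions of 1000 bp or more, 94.2% overlapped cohesin. Of the shared regions of that length 98.5% did. As background, 13.7% of all RAD21 regions passed 2-fold toward DKO and 8.70% toward HCT116, and for SMC1 these shares were 9.36% and 4.67%.

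The cohesin calls at these regions leaned to the same line as the CTCF calls. Over all CTCF regions that overlapped RAD21, the RAD21 region was called in DKO only in 26.2%, in both lines in 62.4% and in HCT116 only in 11.5%. For SMC1 these background shares were 33.4%, 55.0% and 11.6%. Where a DKO-only CTCF region overlapped RAD21, the RAD21 region was called in DKO only in 59.0% of cases, in both lines in 30.0% and in HCT116 only in 10.9%. For SMC1 these shares were 74.5%, 17.7% and 7.74%. Where an HCT116-only CTCF region overlapped RAD21, that region was called in HCT116 only in 40.1%, in both lines in 46.3% and in DKO only in 13.6%. For SMC1 the shares were 41.0%, 43.2% and 15.8%. Of all HCT116-only CTCF regions 63.9% overlapped no RAD21 region, so these shares describe the minority that did.

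Cohesin density at the single-line CTCF regions differed in the same direction as CTCF. At DKO-only CTCF regions RAD21 had a median log2 ratio of 0.54 (0.53 to 0.55) and SMC1 of 0.58 (0.58 to 0.59). At 29.0% of those with RAD21 it passed 2-fold toward DKO, and at 23.8% of those with SMC1 that subunit did. At HCT116-only CTCF regions the medians were -0.55 for RAD21 and -0.30 for SMC1, and 23.99% and 10.8% were at least 2-fold higher in HCT116. These signs held under each scaling. At CTCF regions called in both lines the medians were 0.06 and 0.05 and turned to -0.08 and -0.11 with recentring. Each table was normalized separately, so only directions can be set beside each other across targets, and not the sizes of the medians or the shares past 2-fold.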

How the data were processed

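CTCF, RAD21 and SMC1 libraries of DKO and HCT116 cells, 1 per line and target, were grouped by their titles. Reads were aligned with BWA to hg19 and peaks called with MACS2, per the submitters' processing notes; their versions were not stated in those notes. The authors' deposited tables give 1 row per region with a normalized read density (a signal) per line, M (the log2 ratio, equal to that of the densities within 0.001), A (mean log2 density) and a p-value, used in 1 filter only. Reads plus 1 were recovered from M and A (100% whole within 0.05); the authors' line had an intercept of 0.64 and a slope of -0.09, and it centres regions called in both lines on about 0. Intervals are exact Clopper-Pearson for ratios, Wilson for shares and order statistics for medians, all at 95%. Regions of different tables matched at 1 bp of overlap. Coordinates are hg19 as deposited, and sequence was not used here because the reference tables are of another build. Python 3.11.15, numpy 2.4.6, pandas 2.3.3 and scipy 1.17.1 were used, and the calculations were tested on simulated data.

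Regions were named by rule, leaving out chromosome 8: in each call group the 3 highest and 3 lowest ratios at or above the median density, the 3 longest, the 3 tallest with a log2 ratio within 0.1 of 0, the 5 most divergent pairs 2 to 20 kb apart, the 3 longest runs in each direction, and the highest ratio in each length and spacing class. The regions with 0 reads beside the chromosome 20 site were named after their values were seen. Classes, lists and regions were chosen with earlier results of these data known.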

Additional observations from a re-analysis of the deposited data

How the results depend on the processing

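Of 55 alternatives run, 18 gave the same result, 36 moved a value and 1 changed its sign, and the cause was not tested except where stated. The counts of regions higher in DKO and in HCT116 (34479 and 10867) were 59546 and 24340 at 1.5-fold, 8305 and 1378 at 4-fold, 19044 and 4214 with the higher density at or above the median, 19280 and 4331 with a deposited p under 1e-05, 22317 and 9177 with 1 region per 2 kb, and, for regions that both lines share, 4818 and 3226; these settings keep fewer regions or change the threshold itself. Recentring gave 23831 and 18123.

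The DKO-only minus HCT116-only difference of medians, 1.47, was 1.46 under constant scaling, 1.45 after removing chromosome medians, 1.92 with the density filter, 3.91 with the p filter and 1.60 with 1 region per 2 kb. The difference between regions of 1000 bp or more and under 250 bp, -0.26, was -0.53, -0.57 (density), -0.91 (p filter), -0.17 (2 kb) and -0.0081 (called in both lines). The highest minus lowest density quintile, -0.55, was -0.86 under constant scaling, -1.79 with the p filter, -0.43 with 1 region per 2 kb and -2.91 with the density filter, which empties the lowest quintile of similar regions by construction; for regions that both lines share it was 0.0012 with a 95% half-width of 0.031, so no direction is left there.

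The spacing difference (within 5 kb minus 20 kb or more), 0.44, was 0.37 with chromosome medians removed, 0.53 with the density and the p filter and 0.29 among regions called in both lines. The end minus interior difference, 0.54, was 0.59 under constant scaling, 0.47 with chromosome medians removed, 0.69 and 0.40 with the density and p filters, and 0.32 among regions called in both lines; without the first end of acrocentric chromosomes, an alternative chosen after seeing the data, it was 0.54. Cohesin overlap, 64.3%, was 66.8% when midpoints within 500 bp counted as a match. No paired analysis was possible because each line had 1 library. Depth limits weak regions most: with 36 HCT116 reads at the median region, a 2-fold difference of a single weak region can lie within counting error.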
